A study of Mus musculus with 8 samples.

Results

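Genes of 6 cadherins and 4 catenins were followed in the left and right heart fields of mouse embryos at the stage E8.5f, when the heart tube starts to loop. The members were chosen by name from the table of read counts: Cdh1, Cdh2, Cdh3, Cdh4, Cdh6 and Cdh11 for the cadherins, and Ctnna1, Ctnnb1, Ctnnd1 and Jup for the catenins, 10 genes of the 48526 in the table. All embryos were wild-type C57bl6/J males and received no treatment, so that side was the only factor that differed between the groups. The heart field of each embryo was microdissected, split into its left and right parts, and each part was sequenced as a polyA RNA library. The 8 libraries thus form 4 pairs, from the embryos L29-3, L43-5, L46-8 and L49-3, and the paired comparison asks which genes differ between the sides of a single embryo. The tissue is a dissected region that holds several cell types, and in such bulk samples fewer cells of a type cannot be told apart from less RNA per cell.

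Classical cadherins are transmembrane proteins that bind the same or related cadherins on a neighboring cell in the presence of calcium. Their cytoplasmic tail binds p120-catenin near the membrane and beta-catenin or plakoglobin further along, and alpha-catenin links these to actin. Beta-catenin is also the transcriptional effector of canonical WNT signaling. In the embryo, E-cadherin (Cdh1) is the cadherin of epithelia, whereas N-cadherin (Cdh2) is found in mesoderm, the neural tube and the myocardium, and a switch between them accompanies transitions between epithelium and mesenchyme.

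To show the regulatory sequence at members of different abundance, the 250 bases before a transcript start in RefSeq are given for Ctnnb1, the most abundant member, for its paralogue Jup, and for Cdh6, a member of low abundance. They were taken from a table of RefSeq starts (GRCm38.p6) that was matched for 4 of the 10 members (Ctnnb1, Ctnnd1, Jup and Cdh6), and are written 5′ to 3′ on the strand of the gene. The windows lie at chr9:120933150-120933399 (plus strand), chr11:100397791-100398040 (minus strand) and chr15:13173676-13173925 (minus strand). Capitals mark CCAAT boxes (CCAAT or ATTGG) and GC boxes (GGGCGG or CCGCCC), searched on both strands.
Ctnnb1: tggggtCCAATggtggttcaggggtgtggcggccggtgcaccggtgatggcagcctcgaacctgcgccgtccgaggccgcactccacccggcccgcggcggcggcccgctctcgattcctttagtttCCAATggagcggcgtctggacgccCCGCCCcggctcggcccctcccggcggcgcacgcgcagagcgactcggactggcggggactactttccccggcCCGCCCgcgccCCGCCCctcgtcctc
Jup: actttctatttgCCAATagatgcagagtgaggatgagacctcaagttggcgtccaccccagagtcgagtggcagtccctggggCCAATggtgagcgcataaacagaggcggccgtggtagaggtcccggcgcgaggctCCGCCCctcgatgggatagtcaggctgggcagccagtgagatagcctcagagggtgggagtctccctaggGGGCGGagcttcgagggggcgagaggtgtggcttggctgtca
Cdh6: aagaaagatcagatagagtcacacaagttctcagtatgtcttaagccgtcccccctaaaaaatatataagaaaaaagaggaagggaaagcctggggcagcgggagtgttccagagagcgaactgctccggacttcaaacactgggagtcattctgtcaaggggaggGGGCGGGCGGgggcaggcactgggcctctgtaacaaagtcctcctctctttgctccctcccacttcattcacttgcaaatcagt
The Ctnnb1 window printed here held 2 CCAAT boxes and 3 GC boxes, the Jup window 2 of each, and the Cdh6 window 2 GC boxes that overlap and no CCAAT box. Among the 32851 windows of this length, 33.8% held a CCAAT box and 32.7% a GC box. The windows differed in their CpG dinucleotides, 35 in Ctnnb1, 13 in Jup and 6 in Cdh6, against a median of 6 over all windows, and 97% of windows had fewer than Ctnnb1. A second Ctnnb1 window of the table, which overlaps the first, held 0 CCAAT boxes, 2 GC boxes, 1 TATA box (TATAAA or TTTATA) and 43 CpG dinucleotides. GENCODE also gives Ctnnb1 a transcript that starts further upstream, so that both windows lie inside the gene in that annotation. The E-box CAGGTG or CACCTG, the kind of site to which SNAI and ZEB factors can bind, was in 17.2% of all windows and in none of the 6 windows of the members (several starts are annotated for Ctnnb1 and Ctnnd1). These matches describe letters in a window and were not measured as binding.

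Total counts ranged from 1147446 to 3520753 per library, after removal of duplicate reads by the authors. Counts were put on a common scale with DESeq2 size factors, and these normalized read counts are the values given below. Markers of the heart field were present, as all 10 genes of a second heart field list passed the filter on low counts (at least 20 normalized reads in at least 4 libraries), with Isl1 between 91.6 and 170 normalized reads. All 10 genes of an epithelial list passed it too, their summed normalized read count lying between 1666 and 2281 in left libraries and between 1702 and 2014 in right ones, and 8 of 10 endothelial genes passed. Of 10 surface ectoderm genes 2 passed, Wnt6 and Gata3, while Trp63 of the same list had between 0 and 3.24 normalized reads. The summed count of this list was between 121 and 153 in left libraries and between 126 and 180 in right ones. Of 10 primitive blood genes 0 passed. The right library of L46-8 and both libraries of L49-3 stood apart from the others. In these the genes with long transcripts were relatively low, with a Spearman rho between a gene's deviation from its mean and its exon length of -0.14, -0.19 and -0.20 over 9737 genes, against 0.01 to 0.22 in the other 5 libraries. The chi-square per degree of freedom of the right library of L46-8 was lower against the left and right libraries of L49-3 (2.14 and 2.04) than against its own left library (3.19). This value also rises with depth. The libraries of L49-3 held 1237593 and 1147446 counts and the left library of L46-8 held 2336614, and the part of depth was not tested.

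All 10 members passed the filter on low counts, but their levels covered a wide range. Levels of different genes are compared as normalized reads per kilobase of exon. Ctnnb1 (beta-catenin) was highest, at 343 ± 16.8 (SD, n = 8 libraries), above 97.7% of the tested genes, and Ctnna1 (alpha-catenin) followed at 135 ± 9.99. Cdh1 (E-cadherin) stood at 60.9 ± 6.30, Cdh2 (N-cadherin) at 41.5 ± 6.52, Cdh11 (OB-cadherin) at 39.0 ± 6.49 and Cdh3 (P-cadherin) at 30.0 ± 5.70. These 6 genes were above the median of all tested genes, 20.5 per kilobase, in their mean. Jup (plakoglobin) and Ctnnd1 (p120-catenin) lay close to that median, at 23.2 ± 3.53 and 19.4 ± 1.61. Cdh6 (K-cadherin) at 9.30 ± 2.12 and Cdh4 (R-cadherin) at 3.14 ± 1.05 per kilobase were the least abundant. Ctnnb1, Ctnna1 and Cdh1 were ordered the same way in 8 of 8 libraries without overlap of their ranges, as were Ctnnd1, Cdh6 and Cdh4 at the lower end. In the middle the ranges of neighbors overlapped, and Cdh2 exceeded Cdh11 in only 4 of 8 libraries.

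**Figure D1:**
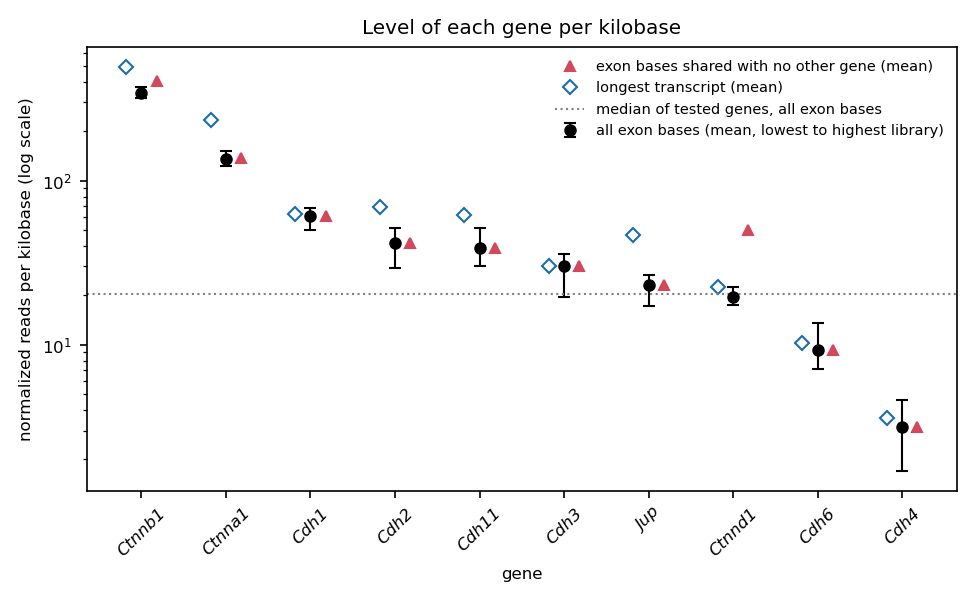
Normalized reads per kilobase (log scale) of each gene, in order of level. Black points are means over 8 libraries with all exon bases as length, with bars from the lowest to the highest library; triangles use only exon bases shared with no other gene, diamonds use the longest transcript, and the dotted line is the median of the tested genes (20.5). Ctnnb1 lies highest at 343 and Cdh4 lowest at 3.14, and Ctnnd1 moves from 19.4 to 50.2 when shared bases are left out.

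The place of Ctnnd1 and of a few others depended on the length used. Of the 7319 exon bases of Ctnnd1, 4482 (61.2%) are shared with Gm28635, a gene annotated on the same strand. Gm28635 had 0 reads in all 8 libraries, which by counting error alone allows up to 3 counts per library. It has 4734 exon bases in all, so that most of them are shared. How reads in shared bases were counted is not given in the sources used here, so that its 0 reads do not measure its level. With the unshared bases as length, Ctnnd1 stood at 50.2 per kilobase and rose from rank 8 to rank 4 of the 10 genes. With the longest transcript as length, Cdh2 (69.2 per kilobase) came before Cdh1 (62.9), and Jup stood at 46.7. No median over all genes was taken with that length. Both alternative lengths were chosen after seeing the data. They leave the comparison of the sides untouched, since a gene's length is the same in every library.

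Each member was identified by its Ensembl gene and placed with the GENCODE annotation of GRCm38. Cdh3 (chr8:106510891-106557297) and Cdh1 (chr8:106603351-106670246) lie one after the other on the plus strand of chromosome 8, and Cdh11 (chr8:102632095-102785642) on its minus strand. Ctnnb1 lies at chr9:120929216-120960507, Jup at chr11:100368958-100397763, Cdh6 at chr15:13028701-13173675, and Cdh4 and Ctnnd1 at chr2:179442431-179899373 and chr2:84600071-84650765. Cdh2 and Ctnna1 are both on chromosome 18. The counts are per gene, so that they do not tell transcripts of a gene apart.

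Between the cadherins, epithelial and mesenchymal types were both abundant in every library. As a share of the reads per base of the 6 cadherins, Cdh1 made up 33.2% ± 3.41 (SD, n = 8), from 28.4% in the right library of L29-3 to 39.9% in the right library of L46-8. Cdh2 made up 22.6% ± 3.21, Cdh11 21.2% ± 3.19 and Cdh3 16.3% ± 2.89. Cdh6 and Cdh4 together contributed little, at 5.04% ± 1.01 and 1.70% ± 0.533. The per base ratio of Cdh1 to Cdh2 ranged from 1.03 to 2.23 and was above 1 in 8 of 8 libraries, both extremes being the libraries just named for Cdh1. With the longest transcript as length it ranged from 0.641 to 1.38 and was above 1 in 3 of 8 libraries, so that which of both genes was the more abundant depended on the length. The largest share was then Cdh1 in 3 libraries, Cdh2 in 4 and Cdh11 in 1. Among the catenins that bind the same site of the cadherin tail, Ctnnb1 exceeded Jup 15.1-fold per base on average, with a lowest ratio of 12.0 and a highest of 21.6. These ratios use all exon bases. With the longest transcript as length the means were 491 per kilobase for Ctnnb1 and 46.7 for Jup, a smaller excess.

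**Figure D2:**
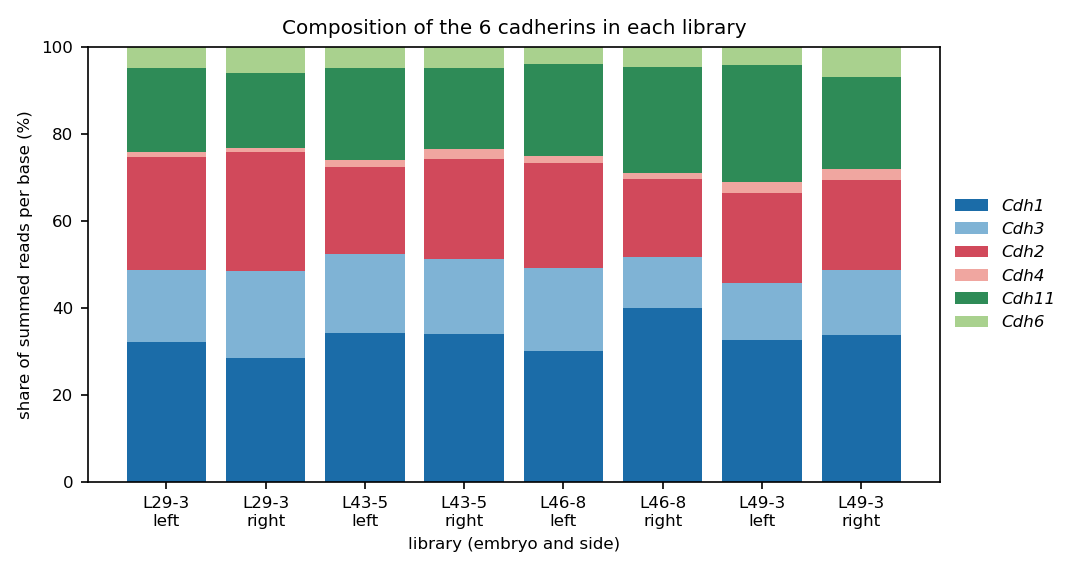
Share of the summed reads per base of the 6 cadherins (%) that each cadherin takes in each library, as stacked bars from 0 to 100%. With all exon bases as length, Cdh1 is the largest share in all 8 libraries (28.4% to 39.9%), which holds in 3 of 8 with the longest transcript as length, and Cdh4 is the smallest (0.972% to 2.37%).

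No member passed the threshold of the study between the left and right heart fields, a change of 1.2-fold or more in either direction together with a p-value, before adjustment, of 0.05 or less. In the paired fit of edgeR 0 of 10 members were called, where 3.06% of the 9744 genes tested were. A single member, Cdh11, had an unadjusted p under 0.05 in edgeR (4.48% of all genes) and in limma-voom (4.69%), and 0 members had one in DESeq2 (0.626%). After Benjamini-Hochberg adjustment 0 members passed 0.05 in any of the 3 tools, the lowest adjusted p from edgeR being 0.993, and 0.0103% of all genes passed in edgeR. Of the members 7 were higher and 3 lower on the left in the fit, with log2 fold changes from -0.18 to 0.24 and a median of 0.05, beside a median of -0.0042 over all genes. Their median absolute log2 fold change was 0.074, against 0.094 over all genes. None of the 10 kept the left above the right in all 4 embryos (6.26% of all genes were), none was lower in all 4, and 12.4% of all genes kept a single direction. For every member the range of the left libraries overlapped the range of the right libraries. The share of all genes with such an overlap was not counted, so that this describes the members only.

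**Figure D3:**
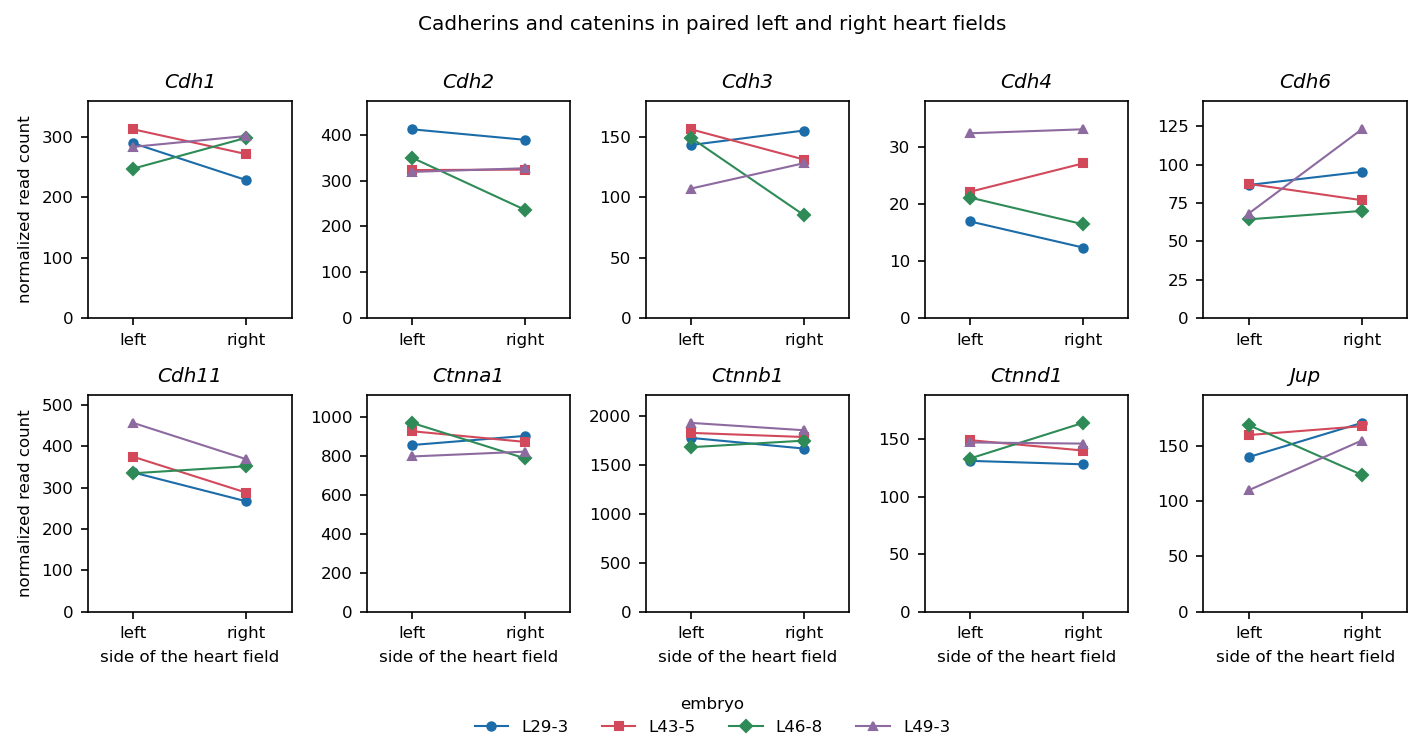
Normalized read count (axis from 0) of each gene in the left and right heart field, with a line joining both sides of an embryo (n = 4 embryos, colors and symbols). For each gene at least 1 line runs against the others, and left and right values overlap.

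Among the type I cadherins, Cdh1 had left and right normalized read counts of 289 against 228 in L29-3, 312 against 271 in L43-5, 247 against 298 in L46-8 and 283 against 301 in L49-3. The left was the higher side in L29-3 and L43-5 and the lower in L46-8 and L49-3, and the means were 283 ± 27.2 for left and 274 ± 33.9 for right libraries (SD, n = 4). The log2 fold change was 0.06 (SE 0.0990; 95% interval -0.15 to 0.27; edgeR unadjusted p = 0.583), and the interval of the fold ran from 0.898 to 1.2. Cdh2 was measured at 412 against 389 in L29-3, 323 against 324 in L43-5, 350 against 236 in L46-8 and 319 against 327 in L49-3, left before right. A marked difference appeared in L46-8 alone, and the other 3 pairs were nearly level. Its log2 fold change of 0.14 (SE 0.0939; edgeR unadjusted p = 0.148) fell to 0.02 without that embryo.

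Cdh3, the P-cadherin gene, had left and right counts of 143 against 155 in L29-3, 156 against 131 in L43-5, 149 against 85.0 in L46-8 and 107 against 128 in L49-3. As for Cdh2, the right library of L46-8 was the lowest of the 8, and the direction was split 2 to 2 between embryos. The log2 fold change was 0.18 (SE 0.149; edgeR unadjusted p = 0.246), and 0.00 without L46-8. For Cdh4 the raw reads were 10 to 51 per library, and 5 of 8 libraries reached the minimum of 20 normalized reads. Its normalized counts were 17.0 against 12.4 in L29-3, 22.2 against 27.2 in L43-5, 21.2 against 16.5 in L46-8 and 32.5 against 33.2 in L49-3. The direction was split 2 to 2 between embryos and both sides of L49-3 were above all other libraries. The log2 fold change was 0.05 and its interval, -0.51 to 0.62, was the widest of the members, so that a difference smaller than that was not detectable at this depth.

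The type II cadherin Cdh11, which is known from mesenchyme, showed the largest left to right difference of the members. Left against right, its normalized read count was 337 against 267 in L29-3, 375 against 288 in L43-5, 335 against 352 in L46-8 and 457 against 369 in L49-3. It was therefore higher on the left in L29-3, L43-5 and L49-3 (3 of 4 embryos), by log2 ratios of 0.34, 0.38 and 0.30, and slightly lower in L46-8 (-0.08). The left mean was 376 ± 57 and the right mean 319 ± 48.9 (SD, n = 4), a log2 fold change of 0.24 (SE 0.0848; fold 1.18, interval 1.04 to 1.33; edgeR unadjusted p = 0.0123, adjusted p = 0.993). The fold is below the 1.2 of the study. Without L46-8 the log2 fold change was 0.34 (unadjusted p = 0.000688, adjusted p = 0.342) and Cdh11 passed the threshold of the study, as did 3.94% of the genes in that fit. Without L29-3, L43-5 or L49-3 the unadjusted p was 0.0604, 0.0891 and 0.0517. The summed count of a cranial neural crest list, mesenchyme that also lies near the heart field, was between 646 and 817 on the left and between 540 and 711 on the right, with 1 of its 7 tested genes (Snai2) past the threshold. Of the 7 genes 3 had a positive and 4 a negative log2 fold change, with a median of -0.02, and the part of this list in the Cdh11 values was not tested. Reads of Cdh11 are also uncertain because 6 pseudogenes in the table share at least 90% identity over at least 100 bases with it, up to 990 bases. By the same criterion Ctnna1 matches 21 genes, over at most 210 bases, and Jup 1496 genes, over at most 163 bases, so that part of their reads is uncertain too. For the Cdh11 pseudogenes the summed mean was 164 normalized reads over left libraries and 183 over right ones.

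Markers of other tissues were compared between the sides as well, and 0 genes of the neural tube, paraxial mesoderm and cardiomyocyte lists passed the threshold. All tested genes of these lists had a negative log2 fold change, 7 of 7 for the neural tube (median -0.26), 5 of 5 for the paraxial mesoderm (-0.22) and 8 of 8 for cardiomyocytes (-0.16). The median over all genes was -0.0042. Genes of a list were measured in the same libraries and can move together, so that these counts are not independent observations. The embryos did not all share this direction. In L29-3 the summed counts were higher on the left, 696 against 539, 480 against 360 and 6732 against 6309 for these lists in order. In the other embryos the right sum was higher, except for cardiomyocytes in L46-8 (4360 on the left, 2335 on the right). The epithelial list had 8 positive and 2 negative values (median 0.11) and the second heart field list 3 positive and 7 negative (-0.19). The part of these tissues in the values of the members was not tested.

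Cdh6, the other type II cadherin, had 86.7 against 95.3 normalized reads in L29-3, 87.4 against 76.8 in L43-5, 64.3 against 69.8 in L46-8 and 68.1 against 123 in L49-3, left before right. It was higher on the right in 3 of 4 embryos, and the right library of L49-3 lay above all others. The log2 fold change was -0.18 (SE 0.159; edgeR unadjusted p = 0.271). That value followed single embryos, being -0.35 without L43-5 and -0.00 without L49-3, with p-values of 0.0835 and 0.977.

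**Figure D4:**
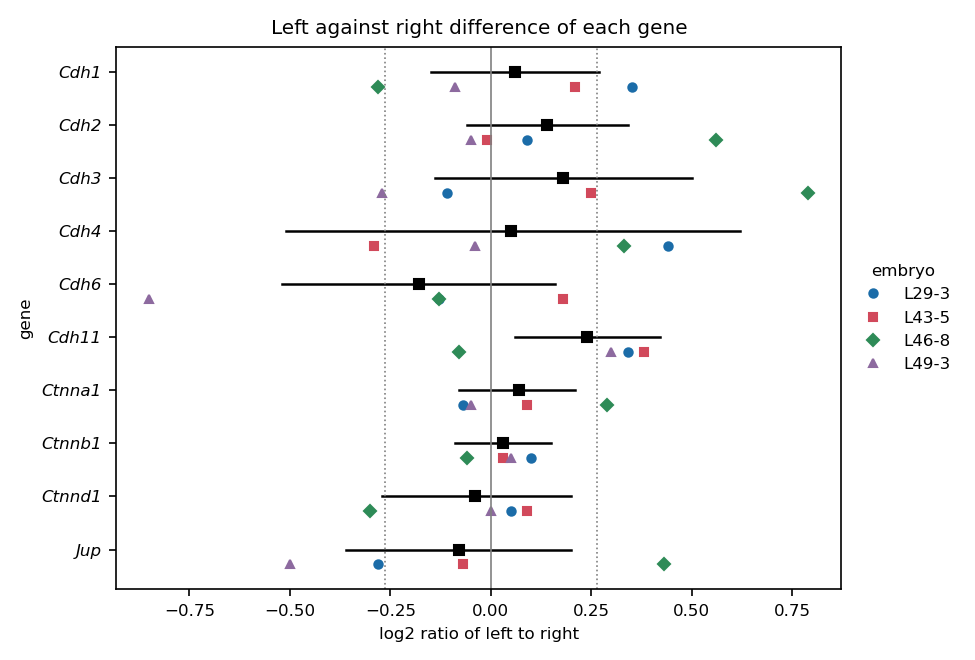
Log2 ratio of left to right for each gene. Black squares are the paired fit with the 95% interval, colored symbols below are single embryos (for Cdh6 the symbols of L29-3 and L46-8 coincide at -0.13), and dotted lines mark a fold of 1.2 either way. The interval of Cdh11 (0.06 to 0.42) is the only one that lies on one side of 0. Embryo L46-8 has the highest or the lowest of the 4 ratios for 8 of the 10 genes, and the share of all genes for which it does was not counted.

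By the coefficient of variation, Ctnnb1, Ctnna1 and Ctnnd1 varied less between libraries than any of the cadherins. The coefficient of variation over 8 libraries was 4.90% for Ctnnb1, 7.39% for Ctnna1, 8.27% for Ctnnd1 and 15.2% for Jup, against 10.4% for Cdh1 and 15.7% to 33.5% for the other cadherins, beside a median of 14.2% over all genes. This order did not hold relative to counting error. The SD was 0.946 times the SD that counting alone gives for Ctnnd1, 1.70 times for Jup, 1.88 times for Ctnnb1 and 2.12 times for Ctnna1, against 1.44 times for Cdh4, 1.75 times for Cdh1 and up to 2.95 times for Cdh11. Ctnnb1 had normalized read counts of 1772 against 1663 in L29-3, 1823 against 1781 in L43-5, 1677 against 1744 in L46-8 and 1925 against 1850 in L49-3. The left was higher in 3 of 4 embryos by small amounts, with a log2 fold change of 0.03 (SE 0.0567) and a fold interval of 0.939 to 1.11, so that a difference of 1.2-fold lies outside it. The Ulk4 gene on the opposite strand shares 759 exon bases (14.6%) with Ctnnb1, but had only 3.91 to 11.6 normalized reads.

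Ctnna1, which couples the complex to actin, ranged from 799 to 972 normalized reads in left libraries and from 789 to 905 in right ones, and its log2 fold change was 0.07 (SE 0.0687; fold interval 0.947 to 1.16). The sides were again split 2 to 2 between embryos. Ctnnd1, which holds cadherins at the cell surface, had 131 to 149 normalized reads in left libraries and 128 to 164 in right ones, the highest value being the right library of L46-8, and its log2 fold change was -0.04 (SE 0.112). For Jup, shared by adherens junctions and desmosomes, left and right counts were 140 against 171 in L29-3, 160 against 168 in L43-5, 169 against 124 in L46-8 and 110 against 155 in L49-3. Jup was higher on the right in 3 of 4 embryos and much lower there in L46-8, and the log2 fold change of -0.08 (SE 0.132; edgeR unadjusted p = 0.541) was smaller than the SD between embryos of 0.398.

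The balance of E-cadherin and N-cadherin was compared within each library, where the scaling of the library cancels. The log2 ratio of Cdh1 to Cdh2 differed between left and right by 0.26 in L29-3 and 0.21 in L43-5, where the left was higher, and by -0.84 in L46-8 and -0.05 in L49-3, where it was lower. The mean difference was -0.10 ± 0.510 (SD, n = 4), with p = 0.875 in an exact two-sided sign-flip permutation test over embryos, a test that cannot reach 0.05 with 4 embryos. Without L46-8 the mean difference was 0.142 (exact p = 0.50). The sign of the mean thus rested on L46-8, the embryo whose right library held the lowest Cdh2 and Cdh3 counts of all 8 and low counts of long transcripts. Exon bases number 4574 in Cdh1, 8066 in Cdh2 and 4384 in Cdh3, and the part of transcript length in these values was not tested.

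The members were also compared between the embryos, which differ in neither genotype nor sex. With the side kept in the model, an F test of the embryo terms in edgeR gave an unadjusted p under 0.05 for 2 of 10 members, Cdh11 (0.0145) and Cdh2 (0.0243), where 10% of all genes had one. After adjustment 0 of 10 passed, the lowest adjusted p being 0.329, beside 0.380% of all genes. In limma-voom 2 members had an unadjusted p under 0.05 (9.82% of all genes), and in DESeq2 0 had one (3.90%). Cdh2 was highest in L29-3, with a mean of 400 normalized reads over both sides against 293 to 324 in the other embryos. Without L29-3 the p for Cdh2 was 0.54. In L29-3 the summed count of 10 cardiomyocyte markers was also highest, 6732 on the left and 6309 on the right against 841 to 5428 elsewhere, and its part in the Cdh2 level was not tested.

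Cdh11 was highest in L49-3, with an embryo mean of 413 against 302 to 343, and without this embryo its p was 0.387. Cdh4 was also highest there, both libraries (32.5 and 33.2) lying above the other 6 (12.4 to 27.2), with an unadjusted p = 0.0633 from edgeR. In the same libraries the summed count of a neural tube list was highest, 1008 and 1059 against 386 to 789. Tbx5, a transcription factor of the posterior heart field, was lowest there, 20.1 and 19.9 against 90 to 164. Isl1, of the same second heart field list, was instead highest there, 146 and 170. The sum of that list was 983 and 1049 in these libraries, within the 833 to 1308 seen over all libraries. The part of these in the Cdh4 and Cdh11 levels was not tested. When genes were tested without the filter on low counts, Cdh2 had an adjusted p of 0.0468 between embryos, and 2.38% of 23873 genes passed.

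The genes around the cadherin complex were described with 7 lists of 106 genes in all, of which 65 passed the filter on low counts. At the threshold of the study 3 of the 65 (4.62%) were higher on the left and 0 lower, beside 3.06% over all genes, and 43 had a positive and 22 a negative log2 fold change, with a median of 0.04. After adjustment 0 of the 65 passed in edgeR, while 7 had an unadjusted p under 0.05 in edgeR (beside 4.48% of all genes), 10 in limma-voom (4.69%) and 2 in DESeq2 (0.626%). Lima1, an actin-binding protein that associates with alpha-catenin, had 126 against 115 normalized reads in L29-3, 153 against 117 in L43-5, 145 against 97.7 in L46-8 and 150 against 108 in L49-3, left before right. The left value was the higher in 4 of 4 embryos (6.26% of all genes were) without overlap of the sides, a trait not counted over all genes. The log2 fold change of Lima1 was 0.38 (SE 0.117; edgeR unadjusted p = 0.00477, adjusted p = 0.993).

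Snai2, a repressor of E-cadherin and a gene of the neural crest, had 45.4 against 34.7 normalized reads in L29-3, 75.6 against 62.4 in L43-5, 82.2 against 44.4 in L46-8 and 86.7 against 49.9 in L49-3. It had a left excess in 4 of 4 embryos (6.26% of all genes had one), although the sides overlapped between embryos. Its log2 fold change was 0.55 (SE 0.168, edgeR unadjusted p = 0.00430, adjusted p = 0.993). Cdh1 itself had a log2 fold change of 0.06 in the same libraries, which hold several cell types, and a relation between both genes was not tested. Pcdh1, a protocadherin, had 78.6 and 56.9, 88.0 and 72.0, 72.4 and 64.7, and 88.3 and 59.8 normalized reads in the embryos in the same order. It too was higher on the left in 4 of 4 (6.26% of all genes were). The sides were barely apart, the lowest left value being 72.4 and the highest right value 72.0, a trait not counted over all genes. Its log2 fold change was 0.35 (SE 0.145, edgeR unadjusted p = 0.0269, adjusted p = 0.993). The unadjusted p rose to 0.143 in DESeq2, and in edgeR to between 0.0593 and 0.0831 without L29-3, L43-5 or L49-3. Lima1, Snai2 and Pcdh1 were named because they passed the threshold, so that 1 direction in 4 of 4 embryos follows largely from how they were picked.

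**Figure D5:**
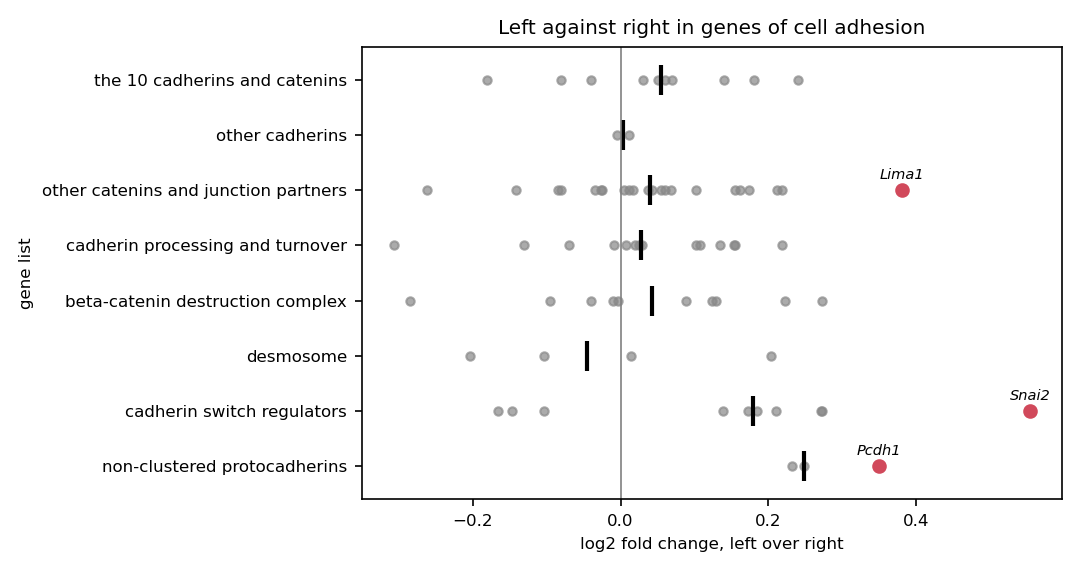
Log2 fold change, left over right, of the 10 cadherins and catenins and of the tested genes of 7 lists. Each point is a gene, black bars are list medians, and the 3 genes past the threshold of the study (Lima1, Snai2 and Pcdh1) are named in red. The 10 cadherins and catenins lie between -0.18 and 0.24.

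By list, 22 of 25 other catenins and junction partners were tested, and 1 was higher on the left (Lima1). The most abundant of them was Ptprf, a receptor tyrosine phosphatase, with a left mean of 1271 ± 23.9 and a right mean of 1140 ± 25.3 normalized reads (SD, n = 4). In 4 of 4 embryos the left value was the higher (6.26% of all genes), but its log2 fold change of 0.15 (edgeR unadjusted p = 0.0157) was below a fold of 1.2. Of 15 regulators of the switch between cadherins 10 were tested and 1 was higher on the left (Snai2). The 3 most abundant were Tcf3, Tcf4 and Twist1, in that order, with log2 fold changes of -0.10, 0.21 and 0.27, and none of these passed. Of 11 non-clustered protocadherins 3 were tested, with positive log2 fold changes of 0.23 to 0.35, and 1 of them (Pcdh1) passed.

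No gene of the other 4 lists passed in either direction. All 14 genes of cadherin processing and turnover were tested, among them the sheddase Adam10 with a left mean of 268 ± 15.8 and a right mean of 249 ± 18.6 normalized reads. Of 11 genes of the beta-catenin destruction complex 10 were tested, led by Csnk1a1 (854 ± 63.7 and 854 ± 29.1), Gsk3b (376 ± 6.84 and 378 ± 45.3) and Apc (374 ± 29.4 and 340 ± 27.2). The median log2 fold change was 0.03 for the former list and 0.04 for the latter. Of 14 desmosome genes 4 were tested and 5 had no read in any library, while Dsp, which anchors desmosomes to keratin, had a left mean of 361 ± 82.5 and a right mean of 357 ± 61.8. Of 16 other cadherins only 2 were tested, the endothelial Cdh5 (175 normalized reads on average) and Cdh24 (50.2), and 2 had no read in any library.

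The genes whose levels over the 8 libraries were most like a member were found by Pearson's r of log2 CPM after TMM normalization, which is a description over 8 libraries that share embryos, depth and transcript length effects. For each member the highest values among all tested genes were taken. How high an r unrelated genes reach over 8 libraries was not counted, so that a high r alone does not link a gene to a member. Among the genes most like Jup were Lbh (0.96) and the epithelial keratin Krt18 (0.95). Krt18 had its lowest normalized read count, 342, in the left library of L49-3, as Jup did, which genes picked for a high r tend to share. Cdh11 was most like Litaf (0.96), Rpl36a (0.95) and Rab25 (0.94), Cdh1 like Zfp398 (0.96), Ntn1 (0.95) and Clstn1 (0.93), and Ctnnb1 like the gap junction gene Gja1 (0.96), Rraga and Polr2j (both 0.95). For Cdh2 these were Khnyn (0.97), Pgap1 and Ncapd2 (both 0.96), for Cdh3 Dcaf5 (0.98), Lrrk1 and Kiz (both 0.97), and for Ctnna1 Ubr4 (0.98), Frmd6 (0.97) and Reep5 (0.96). The right library of L46-8 held the lowest value of the 8 for each of the 6 genes named for Cdh2 and Cdh3, and for 3 of 3 named for Ctnna1. It was also the lowest library of these members, so that this follows largely from how the genes were picked. Cdh4 was most like Dcaf4 (0.94), Mrpl28 and the neurofilament gene Nefl (both 0.93), Cdh6 like Foxn3, Rnf165 (both 0.95) and Tshz3 (0.94), and Ctnnd1 like Cdc40 (0.98), Lin9 and Pbdc1 (both 0.94).

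Among the members themselves, Cdh3 and Ctnna1 (r = 0.85), Cdh2 and Cdh3 (0.82), Cdh11 and Ctnnb1 (0.80) and Ctnna1 and Jup (0.80) went together over the 8 libraries, and Cdh2 and Ctnnd1 ran opposite (-0.92). The right library of L46-8 held the lowest Cdh2 count and the highest Ctnnd1 count, 236 and 164 normalized reads. The pairs named are the most extreme of all pairs of members. The SD of Ctnnd1 was 0.946 times the SD that counting alone gives, so that its variation over the libraries cannot be told apart from counting error.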

How the data were processed

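Bulk RNA-seq of 4 left and 4 right heart fields was analysed, with the side and embryo of each library taken from the sample labels. Paired-end reads were aligned by the authors with Hisat2 to GRCm38 (mm10), duplicates were excluded, and raw featureCounts counts per gene were deposited, without normalization. The submitters' processing notes name limma 3.40.6, but the versions of Hisat2 and featureCounts and the strand setting of the counting are not given in the sources used here, so that reads of genes that overlap on opposite strands may not be told apart. RNA was amplified by PCR before sequencing, and floors of 3 counts cover counting error only.

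Symbols, positions and exon lengths were from GENCODE vM21. Of 48526 identifiers, 48144 had a symbol. The 9744 genes with 20 or more DESeq2-normalized reads in 4 or more libraries, the rule of the study, were tested with edgeR 4.0.16 in R 4.3.3 (TMM, quasi-likelihood test, embryo as a block, each pair being of 1 animal), with Benjamini-Hochberg adjustment over all tested genes. The same fit gave the test between embryos. limma 3.58.1 and DESeq2 1.42.0 were used as alternatives, together with DESeq2 size factors, library size alone, testing of all genes, a minimum of 10 counts per library, no block, and each embryo left out. Ratios of single embryos use CPM with a pseudocount of 0.5. P-values over these embryos are for 4 animals, and no pair of libraries differed by as little as sampling noise (smallest chi-square per degree of freedom 1.93). The methods were tested on simulated data. The members and the gene lists were chosen with earlier results of these data known. All members are named, together with list genes past the threshold of the study, up to 3 examples of highest mean per list, and the 3 genes most like each member, of which 1 is not reported here. The list not given in the report is foregut endoderm (8 of 10 tested, 3 with a positive and 5 with a negative log2 fold change), in which 0 genes passed the threshold.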

Additional observations from a re-analysis of the deposited data

How the results depend on the processing

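The count of 0 members past the threshold of the study and of 0 with an adjusted p under 0.05 between sides held under DESeq2 size factors, library size alone, DESeq2, limma-voom, no replicate block, a minimum of 10 counts per library and no filter. With each embryo left out it ranged from 0 to 1 for the threshold of the study, the 1 being Cdh11 without L46-8. Between embryos, the count of members with an adjusted p under 0.05 was 0 except for 1 (Cdh2) without the filter. Genes of the 7 lists past the threshold numbered 3 (3.06% of all genes passed), 7 without the filter (2.68%), 6 in limma-voom (3.09%), 4 with library size alone (3.06%), 2 in DESeq2 (0.575%), and 3 to 8 with an embryo left out (5 without L29-3, 3.53%, and 8 without L49-3, 2.79%). Of 109 refits of member fold changes, 99 kept direction and side of the threshold, 9 reversed around 0 and 1 passed. With an embryo left out, log2 fold changes ranged from -0.038 to 0.17 for Cdh1, -0.038 to 0.085 for Cdh4, 0.18 to 0.34 for Cdh11, -0.008 to 0.11 for Ctnna1, -0.092 to 0.055 for Ctnnd1 and -0.25 to 0.016 for Jup, and the Cdh1 to Cdh2 difference from -0.225 to 0.142. Cdh4 was -0.012 in limma-voom and -0.004 with no replicate block, and could not be tested without L43-5. Leaving out the block changed no other direction, and the unadjusted p of Cdh11 was then 0.0756. The cause of these shifts was not tested. The smallest libraries, of L49-3, limit low genes most, with 3 counts equal to 2.61 CPM.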
